A study of Mus musculus with 9 samples.

Results

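The SIBLING proteins (small integrin-binding ligand, N-linked glycoproteins) are acidic, phosphorylated proteins of the mineralizing matrix, and 5 genes encode them: *Dspp*, *Dmp1*, *Ibsp*, *Spp1* and *Mepe*. They were examined together with *Sost*, *Phex* and *Pdpn*, 3 further genes used as markers of osteocytes, in mandibular RNA of mice. The 8 genes were taken by symbol from a count table of 27179 genes, and all 8 passed the filter on low counts that left 16329 genes for testing. The mandibles came from 6-month-old male C57BL/6 mice, 5 wild type (WT) and 4 labelled FcgRIIB-/-, a deletion of the inhibitory Fc receptor for IgG that is used as a mouse model of lupus. No other allele or agent was named for either group. RNA came from the entire mandible with its teeth, so dentin and enamel cells contributed beside bone, and genes of marrow and muscle were present in every library.

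Libraries held 21453880 to 28991631 assigned counts, and levels are given as CPM, counts scaled to the library's TMM-adjusted size. *Fcgr2b*, the targeted gene, was not lower in the mice labelled FcgRIIB-/-, where it stood at 27.8 ± 2.90 CPM (SD, n = 4). WT mice had 24.0 ± 8.28 CPM (SD, n = 5), and the fitted log2 difference was 0.21 (edgeR adjusted p = 0.442). Gene totals do not show whether these reads came from the deleted part of the gene, and the groups are therefore named by their labels. WT replicate 5 stood apart from the other WT mice for several of the genes below. It was at least 5-fold above the mean of the other 4 WT mice in 24 of the tested genes, and by this ratio *Sost* ranked 3 and *Mepe* ranked 4. WT replicate 2 was that far above the rest of its group in 62 genes and FcgRIIB-/- replicate 4 in 36. By this count over all genes, WT replicate 5 was not the most distinct library. Its mean distance to the other WT mice in log2 CPM was 63.9, beside 68.2 for WT replicate 2. Its mean distance to the mice labelled FcgRIIB-/- was 126, and no library lay further from the other group. Why WT replicate 5 differed in these genes was not tested. Results for the 8 genes, the ratios and the counts of the gene lists are therefore given with and without it. Of the further genes named as higher or lower, all but *Ifitm5*, *Smpd3*, *Itgb1* and *Lrp6* kept their direction and stayed past the threshold without it.

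By way of background, osteocytes are former osteoblasts enclosed in bone, and odontoblasts are the cells that line the dental pulp and lay down dentin. Both secrete SIBLING proteins, which bind calcium and, through an RGD motif, integrins on the cell surface. *Dspp* is most strongly associated with dentin, whereas *Sost* and *Mepe* are associated with osteocytes embedded in mineralized bone. *Sost* encodes sclerostin, a secreted inhibitor of Wnt signalling that restrains bone formation.

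The SIBLING genes lie side by side on the plus strand of chromosome 5 of the mouse genome. By RefSeq coordinates on GRCm38.p6 (mm10, the build named in the submitters' processing notes), *Dspp* spans chr5:104170703-104180127, *Dmp1* chr5:104197575-104214102, *Ibsp* chr5:104299287-104311472, *Mepe* chr5:104325329-104338611 and *Spp1* chr5:104435111-104441053. The cluster covers 270.4 kb, and *Ibsp* and *Mepe* are the closest neighbours, 13.9 kb apart. *Sost* is at chr11:101962458-101967015 on the minus strand, *Phex* at chrX:157162075-157415286 on the minus strand and *Pdpn* at chr4:143267409-143299564 on the minus strand. *Spp1* and *Phex* overlap other annotated genes, with 1 and 3 of them respectively, so their counts could include or lose reads at those positions.

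The 2 genes that fell most, *Sost* and *Mepe*, are given here with the 150 bases before their annotated start, 5′ to 3′ on the strand of the gene, from RefSeq on GRCm38.p6. Capitals mark 2 short motifs searched on both strands. The first is a variant of the TATA box, written TTTAAA, which reads the same on either strand. The other is the core of a RUNX site, TGTGGT, which reads as its reverse complement ACCACA on the opposite strand.
Sost, chr11:101967016-101967165, minus strand: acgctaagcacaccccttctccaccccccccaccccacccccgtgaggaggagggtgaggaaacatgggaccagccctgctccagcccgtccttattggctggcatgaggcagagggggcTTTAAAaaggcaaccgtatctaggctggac
Mepe, chr5:104325179-104325328, plus strand: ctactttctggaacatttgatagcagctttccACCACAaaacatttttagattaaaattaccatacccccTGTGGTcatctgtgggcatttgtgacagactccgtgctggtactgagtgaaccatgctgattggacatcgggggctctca
*Sost* had TTTAAA beginning 30 bases before the start and no RUNX core. *Mepe* had ACCACA beginning 118 bases and TGTGGT beginning 80 bases before the start, and a TTTAAA that began at base 6 after it. Windows of 250 bases before to 50 bases after the start were searched in 32851 promoters, 9 of them of the 7 genes with an entry. The RUNX core was present in 16.8% of all promoters and in 3 of these 9 (*Dmp1*, *Spp1* and *Mepe*). TTTAAA was present in 13.2% of all promoters and in 6 of these 9, which belonged to 6 of the 7 genes. The motifs were chosen after the expression values had been seen, and a match describes letters in a window, not a bound site.

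The members differed widely in level. Per exon length, as RPKM (CPM per kilobase of exon), *Dspp* was the highest in the first 4 WT mice at 1174 ± 249 RPKM (SD, n = 4), ranking 17 of 15967 genes with a length. *Spp1* followed at 363 ± 38.6 RPKM and *Ibsp* at 272 ± 62.9 RPKM. *Dmp1* at 90.3 ± 21.6 RPKM and *Phex* at 87.8 ± 15.7 RPKM did not differ beyond their spread, nor did *Sost* at 7.11 ± 2.65 RPKM and *Mepe* at 6.49 ± 1.59 RPKM. *Pdpn* lay between these pairs at 24.8 ± 2.35 RPKM. In the mice labelled FcgRIIB-/- the order was the same, from *Dspp* at 1421 ± 248 RPKM (SD, n = 4) down to *Sost* at 3.37 ± 1.29 RPKM and *Mepe* at 1.56 ± 1.37 RPKM. In WT replicate 5 it was not: *Sost* stood at 170 RPKM and *Mepe* at 146 RPKM, above *Dmp1* at 133 RPKM, while *Dspp* was at 597 RPKM.

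**Figure D1:**
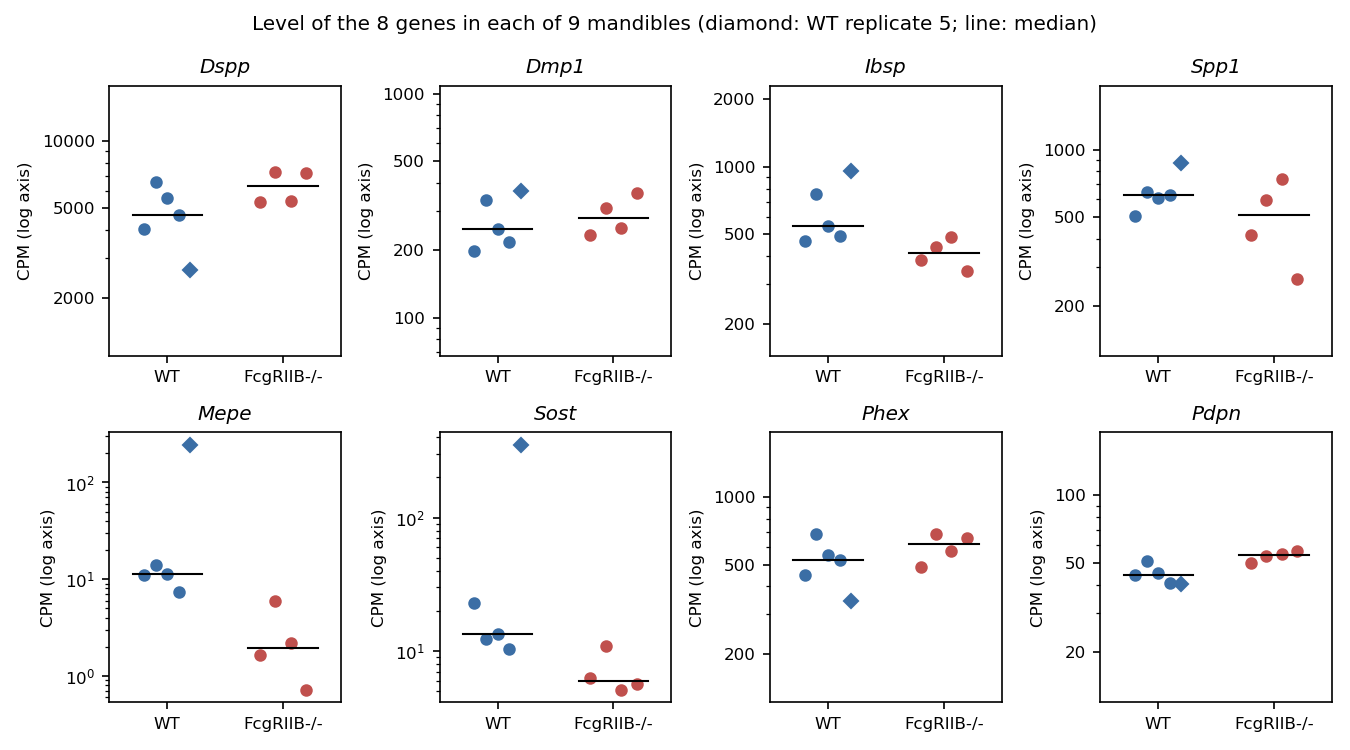
CPM (log axis) of the 8 genes in each mandible, with 1 point per mouse, a line at the median of the group and a diamond for WT replicate 5. The diamond is far above the other points for Mepe (245 CPM) and Sost (352 CPM) and is the lowest point for Dspp (2645 CPM) and Phex (343 CPM), and only for Mepe do all 4 mice labelled FcgRIIB-/- lie below all WT mice.

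Of the 8 genes, 3 were lower in the mice labelled FcgRIIB-/- (*Mepe*, *Sost* and *Ibsp*) and 1 was higher (*Pdpn*) at an edgeR quasi-likelihood adjusted p under 0.05. Among all tested genes, 19.3% were lower and 14.0% were higher by the same criterion. Without WT replicate 5, 2 were lower (*Mepe* and *Sost*) and 1 was higher (*Pdpn*), beside 15.9% lower and 13.3% higher of all tested genes. The median log2 fold change over the 8 genes was -0.15, and -0.04 without WT replicate 5, beside 0.01 and 0.02 over all tested genes. Groups that did not overlap, with every mouse labelled FcgRIIB-/- below every WT mouse, were seen for 1 of the 8 (*Mepe*) and for 17.5% of all tested genes. The opposite separation was seen for none of the 8 and for 12.1% of all tested genes. In bulk tissue, fewer cells of a type and less RNA per cell cannot be told apart, and this holds for every difference below.

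**Figure D2:**
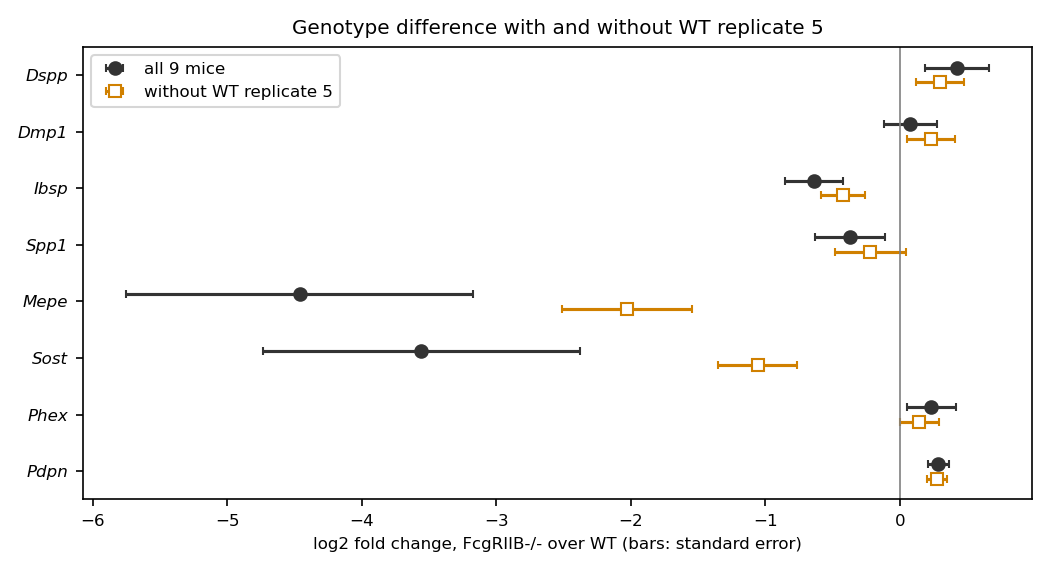
Log2 fold change of each gene, FcgRIIB-/- over WT, with its standard error, from all 9 mice (filled circles) and without WT replicate 5 (open squares). Mepe moves from -4.46 to -2.03 and Sost from -3.56 to -1.06 when that mouse is left out, with smaller standard errors, while Pdpn stays near 0.29.

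*Mepe* encodes matrix extracellular phosphoglycoprotein, a SIBLING protein of osteocytes whose acidic peptide inhibits mineralization. It was at 11.2, 13.9, 11.2, 7.38 and 245 CPM in WT replicates 1 to 5, and at 1.65, 5.96, 2.20 and 0.709 CPM in replicates 1 to 4 labelled FcgRIIB-/-. The lowest of the latter rested on 14 reads and the highest WT value on 6288 reads. All mice labelled FcgRIIB-/- were below all WT mice, and WT replicate 5 was 22.5-fold above the mean of the other WT mice. The log2 fold change was -4.46 ± 1.29 (SE, edgeR adjusted p = 0.0232), and -2.03 ± 0.48 (adjusted p = 0.0122) without WT replicate 5. With WT replicate 5 kept, the call was lost when FcgRIIB-/- replicate 1 (adjusted p = 0.0628), replicate 3 (adjusted p = 0.0633) or replicate 4 (adjusted p = 0.0630) was left out, and with a robust dispersion (adjusted p = 0.0600). With WT replicate 5 left out, it was kept in 8 of 8 fits that left out 1 further mouse, with log2 fold changes from -2.79 to -1.73 and adjusted p from 0.00175 to 0.0370.

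*Sost* was at 22.7, 12.3, 13.4, 10.4 and 352 CPM in WT replicates 1 to 5, and at 6.24, 10.9, 5.08 and 5.63 CPM in replicates 1 to 4 labelled FcgRIIB-/-. The groups overlapped by 1 pair, since FcgRIIB-/- replicate 2 was above WT replicate 4. WT replicate 5 was 23.9-fold above the mean of the other WT mice. The log2 fold change was -3.56 ± 1.18 (SE, edgeR adjusted p = 0.0395), and -1.06 ± 0.29 (adjusted p = 0.0233) without WT replicate 5. With WT replicate 5 kept, the call was lost when any 1 mouse labelled FcgRIIB-/- was left out (adjusted p from 0.0690 to 0.0960), and with a robust dispersion (adjusted p = 0.0895). With it left out, the call was kept in 4 of 8 fits that left out 1 further mouse. It was lost without WT replicate 1 (-0.76, adjusted p = 0.0562) and without FcgRIIB-/- replicate 1 (-1.01, adjusted p = 0.0591), replicate 3 (-0.95, adjusted p = 0.0606) or replicate 4 (-0.97, adjusted p = 0.0557).

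*Ibsp* encodes bone sialoprotein, which osteoblasts and cementoblasts secrete and which nucleates mineral. Its levels were 468, 753, 543, 490 and 962 CPM in WT replicates 1 to 5, and 385, 439, 488 and 342 CPM in replicates 1 to 4 labelled FcgRIIB-/-. Only FcgRIIB-/- replicate 3 lay above the lowest WT mouse. The log2 fold change was -0.64 ± 0.22 (SE, edgeR adjusted p = 0.0426), and without WT replicate 5 it was -0.42 ± 0.16 (adjusted p = 0.0793), no longer past the threshold. The call was also lost without WT replicate 2 (-0.56, adjusted p = 0.0874), without WT replicate 3 (-0.68, adjusted p = 0.0503) and without each of the mice labelled FcgRIIB-/- in turn (adjusted p from 0.0514 to 0.110).

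*Spp1*, which encodes osteopontin, a mineralization inhibitor that bone cells, osteoclasts and macrophages make, did not pass the threshold. It was at 506, 650, 608, 626 and 877 CPM in WT replicates 1 to 5 and at 419, 599, 738 and 264 CPM in replicates 1 to 4 labelled FcgRIIB-/-. The groups overlapped, and the log2 fold change was -0.37 ± 0.26 (SE, edgeR adjusted p = 0.298). It was -0.22 ± 0.26 (adjusted p = 0.555) without WT replicate 5. FcgRIIB-/- replicate 4, the lowest of the 9 for both *Spp1* and *Ibsp*, was also the lowest for the summed level of the osteoclast markers, at 275 CPM. The part of these cells in the *Spp1* and *Ibsp* values was not tested.

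*Dspp* encodes dentin sialophosphoprotein, the precursor of the main non-collagenous proteins of dentin. Its levels were 4023, 6549, 5577, 4653 and 2645 CPM in WT replicates 1 to 5, and 5312, 7290, 5380 and 7205 CPM in replicates 1 to 4 labelled FcgRIIB-/-. WT replicate 5 was the lowest of the 9, at 0.509 times the mean of the other WT mice. The groups overlapped, and the log2 fold change was 0.43 ± 0.24 (SE, edgeR adjusted p = 0.187), or 0.30 ± 0.18 (adjusted p = 0.229) without WT replicate 5.

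*Dmp1* encodes dentin matrix protein, which odontoblasts and osteocytes share and which lowers *Fgf23* in bone. It was at 199, 334, 248, 218 and 367 CPM in WT replicates 1 to 5 and at 233, 308, 252 and 360 CPM in replicates 1 to 4 labelled FcgRIIB-/-. The 2 ranges coincided almost entirely, with a log2 fold change of 0.08 ± 0.20 (SE, edgeR adjusted p = 0.787), and 0.23 ± 0.18 (adjusted p = 0.357) without WT replicate 5.

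*Phex* encodes an endopeptidase of osteoblasts, osteocytes and odontoblasts that cleaves SIBLING-derived acidic peptides and whose loss causes X-linked hypophosphatemia. It was at 448, 685, 551, 525 and 343 CPM in WT replicates 1 to 5 and at 487, 685, 577 and 653 CPM in replicates 1 to 4 labelled FcgRIIB-/-. WT replicate 5 was again the lowest of the 9. The log2 fold change of 0.23 ± 0.18 (SE, edgeR adjusted p = 0.338) did not pass the threshold, nor did that of 0.14 ± 0.15 (adjusted p = 0.487) without WT replicate 5.

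*Pdpn* encodes podoplanin, or E11, a membrane glycoprotein of early osteocytes that form dendrites, also made by lymphatic endothelium, odontoblasts and basal epithelium. It was at 44.1, 50.8, 45.1, 40.5 and 40.2 CPM in WT replicates 1 to 5 and at 50.1, 53.7, 54.8 and 56.7 CPM in replicates 1 to 4 labelled FcgRIIB-/-. The groups overlapped by 1 pair, FcgRIIB-/- replicate 1 and WT replicate 2. The log2 fold change was 0.29 ± 0.078 (SE, edgeR adjusted p = 0.0187), and 0.28 ± 0.077 (adjusted p = 0.0244) without WT replicate 5. With WT replicate 5 and 1 further mouse left out, it passed the threshold in 3 of 8 fits (adjusted p from 0.0101 to 0.0703). It was lost without WT replicate 1 (adjusted p = 0.0606), WT replicate 3 (adjusted p = 0.0583), WT replicate 4 (adjusted p = 0.0703), FcgRIIB-/- replicate 3 (adjusted p = 0.0603) or FcgRIIB-/- replicate 4 (adjusted p = 0.0512).
Other cells that make podoplanin moved in both directions. The summed level of 6 basal epithelium markers was 3402 to 5138 CPM in WT replicates 1 to 4, 5372 CPM in WT replicate 5 and 4967 to 6074 CPM in the mice labelled FcgRIIB-/-, with 3 of 6 higher. That of 5 lymphatic endothelium markers was 80.5 to 97.9, 112 and 57.8 to 73.5 CPM in the same order, with 4 of 5 lower. Without WT replicate 5, 4 of these were lower and the remaining 1 was higher (edgeR). The summed level of 12 odontoblast genes, described below, was 867 to 978, 788 and 1004 to 1224 CPM in the same order. Of these 12, 6 were higher and 1 was lower. The part of any of these cells in the *Pdpn* difference was not tested.

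*Dspp*, used as a dentin gene, was compared with *Sost* and *Mepe*, used as osteocyte genes, by dividing its level by theirs in the same library. This removes the scaling of the library. In bulk RNA of a mandible with its teeth, the reads of these genes cannot be assigned to 1 cell type. The log2 ratio of *Dspp* to *Sost* was 7.46, 9.05, 8.70, 8.79 and 2.91 in WT replicates 1 to 5, and 9.72, 9.37, 10.03 and 10.30 in replicates 1 to 4 labelled FcgRIIB-/-. All mice labelled FcgRIIB-/- had a higher ratio than all WT mice. The mean difference was 2.47 (2-sided exact permutation test over 126 splits of the mice, p = 0.0317, adjusted over 2 ratios 0.0317). Without WT replicate 5 it was 1.35 (exact permutation p = 0.0286, the smallest that 70 splits allow, also after adjustment). When 1 mouse labelled FcgRIIB-/- was left out, with WT replicate 5 kept, the difference stayed near its size with all mice but no longer passed the threshold. It was 2.52 without replicate 1 and 2.63 without replicate 2 (adjusted exact p = 0.0893 for both), 2.42 without replicate 3 (adjusted exact p = 0.107) and 2.32 without replicate 4 (adjusted exact p = 0.143).

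The log2 ratio of *Dspp* to *Mepe* was 8.48, 8.87, 8.95, 9.29 and 3.43 in WT replicates 1 to 5, and 11.59, 10.24, 11.20 and 13.16 in replicates 1 to 4 labelled FcgRIIB-/-. The groups again did not overlap, with a mean difference of 3.74 (exact permutation p = 0.00794, the smallest that 126 splits allow, adjusted 0.0159). Without WT replicate 5 the difference was 2.65 (exact p = 0.0286, the smallest that 70 splits allow). It was 3.20 (adjusted exact p = 0.107) without FcgRIIB-/- replicate 4, the mouse with the highest ratio. *Mepe* and *Sost* had already been called lower in the fits above, and *Dspp* did not pass the threshold. The ratio tests are therefore not independent of those calls. They cover these genes only and not osteocyte genes as a class. *Phex* (0.23, edgeR adjusted p = 0.338) and *Pdpn* (0.29, adjusted p = 0.0187), also used as osteocyte markers, had positive log2 fold changes. Ratios of *Dspp* to them were not tested.

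**Figure D3:**
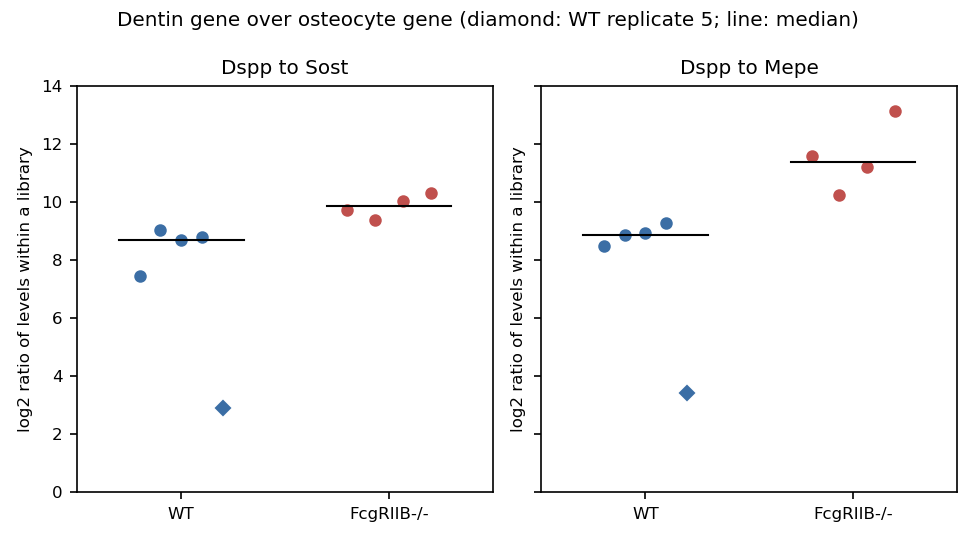
Log2 ratio of Dspp to Sost (left) and of Dspp to Mepe (right) within each library, with 1 point per mouse, a line at the median and a diamond for WT replicate 5. The mice labelled FcgRIIB-/- lie at 9.37 to 10.30 and at 10.24 to 13.16, above all WT mice, and WT replicate 5 lies far below the rest at 2.91 and 3.43.

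The genes differed in how steady a proportion to *Dspp* they kept. The highest over the lowest ratio of *Dspp* to a gene across the 9 libraries was 1.43 for *Phex* and 2.07 for *Pdpn*. These were 1.24 and 1.49 without WT replicate 5. For *Dmp1* it was 3.29, and 1.21 without WT replicate 5. It was 7.66 for *Ibsp*, 9.05 for *Spp1*, 170 for *Sost* and 942 for *Mepe*. Without WT replicate 5 these became 2.45 for *Ibsp*, 3.75 for *Spp1*, 7.23 for *Sost* and 28.2 for *Mepe*. *Phex* stayed close to *Dspp* in all 9 libraries, *Dmp1* did so outside WT replicate 5, and *Mepe* varied most.
As a share of the summed RPKM of the 5 SIBLING genes, *Dspp* made up 59.7 to 63.4% in WT replicates 1 to 4, 31.9% in WT replicate 5 and 61.0 to 78.1% in the mice labelled FcgRIIB-/-. *Mepe* made up 0.251 to 0.437%, 7.79% and 0.0203 to 0.152% in the same order. *Ibsp* made up 13.2 to 15.4%, 24.8% and 7.94 to 11.9%. The *Ibsp* and *Mepe* shares of the mice labelled FcgRIIB-/- lay below those of every WT mouse. A share also depends on *Dspp*, the largest part of the sum, and the *Ibsp* levels themselves overlapped between the groups. Genes outside the 5 have no such share, so this separation has no background value beside it.

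The genes whose centred log2 CPM followed each member most closely over the 9 libraries were sought among 14965 tested genes whose mean log2 CPM was 0 or more. For *Dspp* they were *Carmil1*, *St8sia1*, *Akain1* and *Parm1*, with mean absolute differences of 0.0994 to 0.110 on the log2 scale. For *Mepe* they were *Prg2*, an eosinophil granule protein (0.492), *Sost* (0.662), *Crnn* and *Rnf225*. For *Sost* they were *Pof1b* (0.598), *Fam83c*, *Atp6v0a4* and *Pnpla1*. Those nearest to *Mepe* and *Sost* were also highest in WT replicate 5, by widely differing margins. *Prg2* was at 97.9 CPM there against 0.101 to 2.25 CPM in the other 8 libraries. *Pof1b* was at 132 against 6.74 to 33.5 CPM, and *Fam83c* at 7.46 against 0.635 to 4.27 CPM. Likeness over 9 libraries with 1 extreme library is mostly likeness in that library.

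A list of other genes used for osteocytes did not follow *Mepe* and *Sost*. In bulk RNA of a mandible with its teeth, the reads of these genes cannot be assigned to osteocytes. Of 15 further osteocyte genes, 1 was lower and 4 were higher in the mice labelled FcgRIIB-/-, with a median log2 fold change of 0.07. Leaving out WT replicate 5 gave 1 lower and 5 higher, with a median of 0.14. Among all tested genes 19.3% were lower and 14.0% higher, or 15.9% and 13.3% without WT replicate 5. The counts of the lists below stand beside the same shares. *Fbln7* (0.71, edgeR adjusted p = 0.00290) and *Kcnk2* (0.71, adjusted p = 0.0205), a potassium channel gene, were higher. In WT replicate 5 they stood at 0.683 and 0.519 times the mean of the other WT mice. That ratio was 0.509 for *Dspp*, 22.5 for *Mepe* and 23.9 for *Sost*. *Mmp14*, a membrane metalloproteinase that osteocytes need for dendrite formation, was lower (-0.59, adjusted p = 0.00242). *Fgf23*, the phosphate-lowering hormone of osteocytes, had a log2 fold change of -1.06 (adjusted p = 0.115) at 1.10 to 1.56 CPM in WT replicates 1 to 4, 2.50 CPM in WT replicate 5 and 0.253 to 1.37 CPM in the mice labelled FcgRIIB-/-. *Dkk1*, another secreted Wnt inhibitor, was at 7.30 to 9.58 CPM in WT replicates 1 to 4, 35.5 CPM in WT replicate 5 and 8.86 to 14.6 CPM in the mice labelled FcgRIIB-/- (log2 fold change -0.34, adjusted p = 0.587). Its fold change was positive, 0.37 (adjusted p = 0.135), without WT replicate 5.

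Of 12 odontoblast genes, 6 were higher and 1 was lower, with a median log2 fold change of 0.44. Without WT replicate 5, 7 were higher and 0 were lower (edgeR), with a median of 0.37. The gene lost was *Smpd3*, and in that fit 1 was lower at an unadjusted p under 0.05, as was 1 by DESeq2. The Wnt ligand genes *Wnt6* (0.76, edgeR adjusted p = 0.00949) and *Wnt10a* (0.67, adjusted p = 0.00573) and the transcription factor gene *Sall1* (0.71, adjusted p = 0.0322) led them. *Wnt6* was at 34.5 to 38.8 CPM in WT replicates 1 to 4, 20.8 CPM in WT replicate 5 and 46.8 to 73.1 CPM in the mice labelled FcgRIIB-/-. All mice labelled FcgRIIB-/- were thus above all WT mice for *Wnt6*.
Of 11 osteoblast genes, 3 were lower and 0 were higher by edgeR, with a median of -0.08, while 1 was higher at an unadjusted p under 0.05 and 1 by DESeq2. These were *Ifitm5* (-0.54, adjusted p = 0.0434), an osteoblast membrane protein gene, the type I collagen gene *Col1a2* (-0.52, adjusted p = 0.0191) and *Sp7* (-0.25, adjusted p = 0.0160), which encodes osterix. With WT replicate 5 left out, 2 were lower, with a median of -0.07, and *Ifitm5* did not pass the threshold (-0.49, adjusted p = 0.0853).

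Among 14 tested genes of mineral and phosphate handling, 1 was lower and 2 were higher, with a median log2 fold change of 0.03. In the fit without WT replicate 5, 0 were lower by edgeR (1 at an unadjusted p under 0.05 and 1 by DESeq2) and 2 were higher, with a median of 0.05. *Fam20c*, the kinase that phosphorylates SIBLING proteins, was higher (0.37, edgeR adjusted p = 0.00740), as was *Mgp* (0.57, adjusted p = 0.0178), whose product inhibits calcification. *Smpd3*, a sphingomyelinase needed for mineralization, was lower (-0.44, adjusted p = 0.0239), but not past the threshold without WT replicate 5 (-0.33, adjusted p = 0.0531). *Alpl* (0.11, adjusted p = 0.518), *Phospho1* (-0.11, adjusted p = 0.525) and *Enpp1* (-0.23, adjusted p = 0.107), which set the balance of phosphate and pyrophosphate, did not pass the threshold.
Of 11 tested enzymes that process SIBLING proteins or mature the matrix around them, 3 were lower and 2 were higher, with a median of 0.08. These became 2 lower and 2 higher, with a median of 0.14, without WT replicate 5. The gelatinase genes *Mmp9* (-1.84, adjusted p = 0.00240) and *Mmp2* (-0.77, adjusted p = 0.00121) were lower, and *Mmp20*, an enamel and dentin protease gene, was higher (0.64, adjusted p = 0.0435). *Bmp1*, which cleaves the dentin precursors, had a log2 fold change of 0.23 (adjusted p = 0.170). *Mmp9* is also 1 of the osteoclast markers given below.

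Genes for the receptors of SIBLING proteins were lower more often than higher, beside 19.3% lower and 14.0% higher of all tested genes. Of 10 integrin subunit and *Cd44* genes, 7 were lower and 1 was higher, with a median log2 fold change of -0.36. Without WT replicate 5, 5 were lower and 0 were higher (edgeR), with a median of -0.28, while 1 was higher at an unadjusted p under 0.05 and 1 by DESeq2. *Itgb3*, the β3 subunit of the osteopontin receptor of osteoclasts, was at 88.1 to 112 CPM in WT replicates 1 to 4, 125 CPM in WT replicate 5 and 35.5 to 46.3 CPM in the mice labelled FcgRIIB-/- (-1.30, edgeR adjusted p = 9.53e-05). *Itga4* (-1.16, adjusted p = 0.000709) and *Itgb1* (-0.43, adjusted p = 0.0336) were also lower. For all 3 the groups did not overlap, and *Itgb1* did not pass the threshold without WT replicate 5 (-0.31, adjusted p = 0.0717).
Of 16 tested genes of the sclerostin and Wnt pathway, 5 were lower and 0 were higher by edgeR, with a median of -0.17, and 0 were higher at an unadjusted p under 0.05 or by DESeq2. The count became 4 lower, with a median of -0.16, without WT replicate 5. The secreted Wnt inhibitor genes *Sfrp1* (-1.12, adjusted p = 0.000722) and *Dkk3* (-0.67, adjusted p = 0.000751) were lower. So were the co-receptor genes *Lrp5* (-0.51, adjusted p = 0.00446) and *Lrp6* (-0.28, adjusted p = 0.0455), which sclerostin binds, although *Lrp6* did not pass the threshold without WT replicate 5 (-0.28, adjusted p = 0.0674). *Lrp4*, which anchors sclerostin, had a log2 fold change of -0.19 (adjusted p = 0.0687). The Wnt target genes *Axin2* (0.04, adjusted p = 0.718) and *Lef1* (-0.11, adjusted p = 0.666) did not pass the threshold.
The 5 tested genes beside the SIBLING cluster moved both ways, with 2 lower and 1 higher and a median of -0.22, or -0.17 with the same counts without WT replicate 5. *Abcg3* (-0.63, adjusted p = 0.0181) and *Pkd2* (-0.27, adjusted p = 0.0157) were lower and *Nudt9* (0.49, adjusted p = 0.000696) was higher.

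Markers of other cells moved with the labels. Summed over 6 ameloblast markers, levels were 15848 to 25562 CPM in WT replicates 1 to 4, 9412 CPM in WT replicate 5 and 28886 to 50038 CPM in the mice labelled FcgRIIB-/-, with 4 of 6 higher. The 6 markers of periodontal ligament and fibroblasts were at 9119 to 10424, 16315 and 4227 to 5698 CPM in the same order. Of these 6, 5 were lower, and 4 without WT replicate 5. The enamel cells and the ligament thus ran in opposite directions, and WT replicate 5 was at the far WT end of both. The 8 osteoclast markers were at 855 to 1143, 1217 and 275 to 520 CPM, with 7 of 8 lower.
All 6 neutrophil and marrow markers were lower, at 898 to 1383, 2677 and 136 to 367 CPM, as were all 5 erythroid markers, at 1587 to 1895, 1848 and 92.7 to 417 CPM. The 5 skeletal muscle markers were at 4161 to 9839, 9074 and 10825 to 18384 CPM, with 3 of 5 higher. Among 7 macrophage markers 4 were lower, and their sum was 373 to 565, 545 and 322 to 407 CPM. The 11 osteoblast genes summed to 55240 to 76791, 53158 and 50531 to 61982 CPM, so that the osteoblast sums of the groups overlapped. Among 4 dental pulp markers 1 was lower, and without WT replicate 5, 1 was lower and 1 was higher. Their sum was 2166 to 2818, 2234 and 1506 to 1890 CPM. Most of it came from the lower gene, which averaged 2040 CPM in WT mice and 1278 CPM in those labelled FcgRIIB-/-. The part of the composition of the tissue in the *Mepe*, *Sost*, *Ibsp* and ratio differences was not tested.

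**Figure D4:**
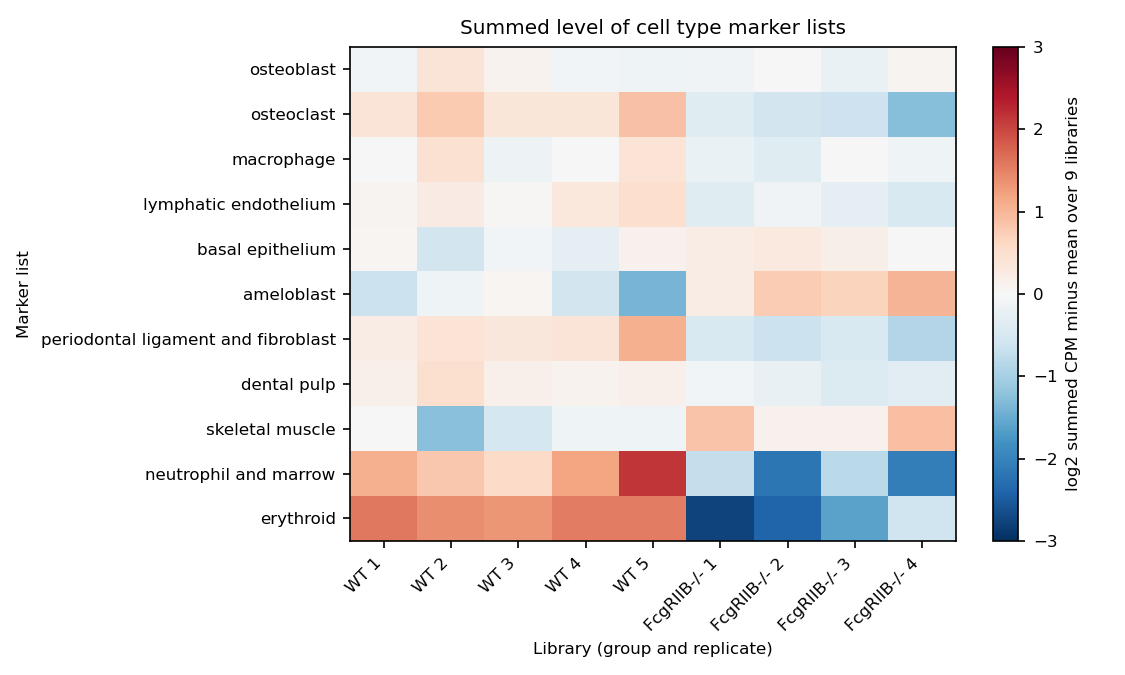
Summed CPM of each marker list (rows) in each library (columns), as log2 minus the mean over the 9 libraries, with red above and blue below the mean. Erythroid, neutrophil and osteoclast lists are below the mean in all mice labelled FcgRIIB-/- and above it in all WT mice, and WT replicate 5 has the lowest ameloblast sum (9412 CPM) and the highest periodontal ligament sum (16315 CPM).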

How the data were processed

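Poly(A) RNA of 9 mandibles (5 WT, 4 labelled FcgRIIB-/-) was sequenced by the authors with a strand-specific kit. Per the labels, the authors trimmed reads with Trim Galore, aligned them to mm10 with HISAT 02.1.0 and deposited raw counts per gene from featureCounts. The annotation, the strand setting and the handling of reads with several positions are not given in the sources used here. The deposited table held 1 further column of per-sample values that matched no sample and was not used.

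Counts of 27179 genes were filtered with filterByExpr (minimum count 10, 16329 genes left), scaled by TMM and tested with edgeR 4.0.16 (R 4.3.3), quasi-likelihood, no covariate, with Benjamini-Hochberg adjusted p under 0.05 as the threshold. Each SE was obtained by dividing the size of the log2 fold change by the root of its F statistic. Levels for ratios and likeness are log2 CPM with a prior count of 2. RPKM divides CPM by the summed exon length of GENCODE vM21. Ratios were tested by a 2-sided exact permutation test. The procedure was tested on simulated counts for this comparison over 16329 genes, of which 200 were changed by 1 on the log2 scale. Of these 200, 74.5% were called, and 8.02% of calls fell on unchanged genes. The simulation changed far fewer genes than were called in the data and held no outlying library. Its shares may therefore not carry over to these data.

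The 8 genes, gene lists and marker lists were chosen with earlier results of these data known, and only the fits with robust dispersion, with DESeq2 or the block without WT replicate 5, and without WT replicate 5 plus 1 further mouse were added after seeing these values. Named are all 8 genes, up to 3 called genes per list with the largest absolute fold change, and *Fgf23*, *Dkk1*, *Fam20c*, *Enpp1*, *Alpl*, *Phospho1*, *Bmp1*, *Mmp20*, *Lrp4*, *Lrp5*, *Lrp6*, *Axin2* and *Lef1*. Alternatives were RLE size factors, other filters, DESeq2 1.42.0, a replicate block and leaving out each mouse. Nothing in the labels ties a mouse to a litter or batch. The edgeR p-values weigh a group difference against the spread between these mice, and the permutation p-values count splits of them.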

Additional observations from a re-analysis of the deposited data

Results flagged for a closer look

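Dixon's criterion was applied to 20 groups of values, the 8 genes as log2 CPM and the 2 log2 ratios in each group of mice. It compares the most extreme mouse with the rest of its group. Chance alone passes it in about 1 of 20 groups. 4 values passed, and all 4 belonged to WT replicate 5. These were *Mepe* at 245 CPM and *Sost* at 352 CPM, each far above the other WT mice, and the log2 ratios of *Dspp* to *Sost* at 2.91 and of *Dspp* to *Mepe* at 3.43, each far below them. The 4 values are not independent, since the ratios are built from the same *Mepe* and *Sost* values and share *Dspp*.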

How the results depend on the processing

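No direction of a called value was reversed. The count of 3 lower genes became 1 with DESeq2, which gave no adjusted p for *Mepe* and *Sost* (NA, its mark for an extreme count), and 1 with a robust dispersion (*Mepe* adjusted p = 0.0600, *Sost* 0.0895). It was 0 to 3 when mice were left out. The count of 1 higher gene became 0 with the replicate block (*Pdpn* 0.26, adjusted p = 0.0627) and was 0 to 1 when mice were left out. With DESeq2 and without WT replicate 5, *Mepe* (adjusted p = 0.00509), *Sost* (0.00153) and *Ibsp* (0.0334) were all lower. The ratio difference of *Dspp* to *Sost* ranged from 1.35 to 2.89 and that of *Dspp* to *Mepe* from 2.65 to 4.18 over the fits that left out 1 mouse. Over all tested genes, the counts ranged from 1984 to 2771 lower and from 1455 to 2292 higher when 1 or 2 mice were left out.
Mice with the same replicate number did not deviate together (correlations of deviations 0.0969, 0.0276, -0.114 and -0.0739). These values show no pairing by number, but they could miss a weak one. With the replicate block, the log2 fold change was -2.23 for *Mepe* (adjusted p = 0.00322) and -1.08 for *Sost* (adjusted p = 0.0212), a fit that leaves WT replicate 5, the only mouse with its number, without weight. *Mepe* counts of 14 to 129 in the mice labelled FcgRIIB-/- limit the precision of its fold change.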
